A study of Mus musculus with 55 samples.

Results

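Interferon-stimulated genes were examined as a group of 39 genes, taken by their symbols from the 37620 genes quantified in the liver of 55 male mice. The symbols were paired with Ensembl gene identifiers, and 1 identifier was found and used for each gene except Psmb9, for which a second, overlapping identifier held 6.26% of the estimated counts of both. The mice were untreated animals of 29 lines of the Collaborative Cross (CC), a panel of recombinant inbred lines bred from 8 founder strains at Tel-Aviv University, 8 to 11.9 weeks old. A line was represented by 1 mouse in 8 lines, by 2 mice in 16 lines and by 3 mice in 5 lines, and mates of a line are close to genetically identical. No mouse was infected or given interferon as far as the labels state, and the values are taken as basal levels. An unrecorded infection or inflammation was not tested for. Since mates share much of their age and may share housing, line and age cannot be told apart. Body weight lay between 12.8 g in a mouse of IL-785 and 38 g in a mouse of IL-2156. It was 12.8 to 15.8 g in IL-785, 25.1 and 28.3 g in IL-2680, 26.9 to 29.5 g in IL-611, and 30.7 and 35 g in IL-4457. Weight was not separated from line, and its part was not tested.

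Interferons are cytokines that cells release on sensing viral nucleic acid. Type I interferon acts through its receptor and the kinases Jak1 and Tyk2 to a transcription factor complex that holds Stat2 and Irf9 and binds interferon-stimulated response elements (ISREs) in promoters. Type II interferon acts at gamma-activated sites (GAS) and raises guanylate-binding proteins, immunity-related GTPases and the immunoproteasome. Many of these genes are also expressed at a low, tonic level in the absence of infection, and in liver they are expressed by hepatocytes as well as by Kupffer and endothelial cells.

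The elements that define the group in textbooks were looked up first in promoter sequences. RefSeq promoters (GRCm38.p6, 250 bases before to 50 bases after the start) were found for 29 of the 39 genes, with 32 promoters in all. No promoter was found in the table for Mx1, Mx2, Iigp1, Zbp1, Gbp6, Oas2, Rtp4, Dhx58, Parp14 and Usp18. An ISRE core, spelled GAAANNGAAA and searched on both strands, was found in 18 of the 32 promoters (56.2%), against 3.44% of all 32851 promoters of the table. A GAS core, spelled TTCNNNGAA, was found in 7 of 32 (21.9%), against 8.30% of all promoters. A match is a run of letters and not evidence of binding. The windows below carry the cores of genes whose values are described later, on the strand of the gene, and capitals mark the GAAA runs, or TTTC where the core lies on the opposite strand.
Isg15, chr4:156200855-156200916, - strand: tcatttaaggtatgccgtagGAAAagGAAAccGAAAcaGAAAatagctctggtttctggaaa
Ifit1, chr19:34640765-34640833, + strand: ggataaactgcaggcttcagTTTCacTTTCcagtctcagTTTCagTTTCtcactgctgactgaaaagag
Ifit3, chr19:34583353-34583436, + strand: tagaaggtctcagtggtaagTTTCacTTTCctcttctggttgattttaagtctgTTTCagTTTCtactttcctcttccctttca
Rsad2, chr12:26456543-26456592, - strand: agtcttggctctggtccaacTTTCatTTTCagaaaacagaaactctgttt
Oas1a, chr5:120907526-120907565, - strand: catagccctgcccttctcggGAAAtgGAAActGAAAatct
Oas1g, chr5:120887614-120887651, - strand: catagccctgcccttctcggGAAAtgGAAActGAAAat
Bst2, chr8:71537567-71537622, - strand: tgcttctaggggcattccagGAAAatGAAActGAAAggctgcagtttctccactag
Cxcl10, chr5:92349073-92349122, - strand: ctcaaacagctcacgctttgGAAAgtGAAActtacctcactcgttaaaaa
Gbp2, chr3:142620584-142620633, + strand: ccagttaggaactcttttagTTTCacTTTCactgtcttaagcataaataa
Igtp, chr11:58199502-58199551, + strand: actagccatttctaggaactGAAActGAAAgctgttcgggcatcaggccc
Irgm2, chr11:58214893-58214942, + strand: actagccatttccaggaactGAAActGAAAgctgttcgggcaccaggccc
Irgm1, chr11:48871421-48871470, - strand: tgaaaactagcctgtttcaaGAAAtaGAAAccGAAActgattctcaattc
Isg15 carried 3 overlapping cores within 78 bases of its start, and Ifit1 and Ifit3 carried 2 separate cores each. The windows of the neighbouring genes Igtp and Irgm2 differed at 2 of 50 positions. No ISRE core was found in the promoters of Irf7, Irf9, Ifi44, Ifit2, Oasl1, Oasl2, Psmb8, Psmb9, Tap1, Trim25 and Xaf1, which says only that these letters are not in those windows.

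Each library held between 20.5 and 34.0 M estimated fragments. All 7 hepatocyte markers were detected, with a summed level between 33884 and 68051 FPKM (fragments scaled by transcript length and by the depth of the library) over lines, among them Alb at a median of 31528 FPKM. Over all 15285 genes tested, 42 of the 47 mice with a mate were most similar to a mouse of their own line, by Spearman correlation of log2(FPKM + 1). Of the 5 that were not, 4 belonged to IL-1052 and IL-2750. The libraries labelled IL-1052 replicate 2 and IL-2750 replicate 2 had a correlation of 0.975 with each other and of 0.944 and between 0.942 and 0.950 with their mates, while IL-1052 replicate 1 had correlations of 0.979 and 0.980 with the other two IL-2750 mice. Values of these lines therefore go against their labels. The main edgeR results are given with and without these lines, whereas the score and its intraclass correlation were not computed without them.

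The genes differed widely in level. Bst2, which tethers budding virions to the cell surface, had the highest median of line means, 148.89 FPKM, with a range over mice from 57.6 to 276.02 FPKM. Iigp1, an immunity-related GTPase, followed with 113.85 FPKM, Irgm1 with 32.1 FPKM and Igtp with 22.99 FPKM, both of them members of the same GTPase family. At the other end Oas3, a synthetase of 2′-5′-linked oligoadenylates, had a median of 0.135 FPKM, Oas2 of 0.247 FPKM and Mx1 of 0.34 FPKM. All but 1 of the 39 genes reached 2 FPKM in some mouse. For the median of the 39 the highest line mean was 11.7 times the lowest, with line means under 0.1 FPKM set to 0.1, against 2.85 times over all 11284 genes that reached 2 FPKM. The ratio was at least 10 in 24 genes, a count that was not made over all genes. The comparison was not matched for level, and ratios can be larger where the lowest mean is small.

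**Figure D1:**
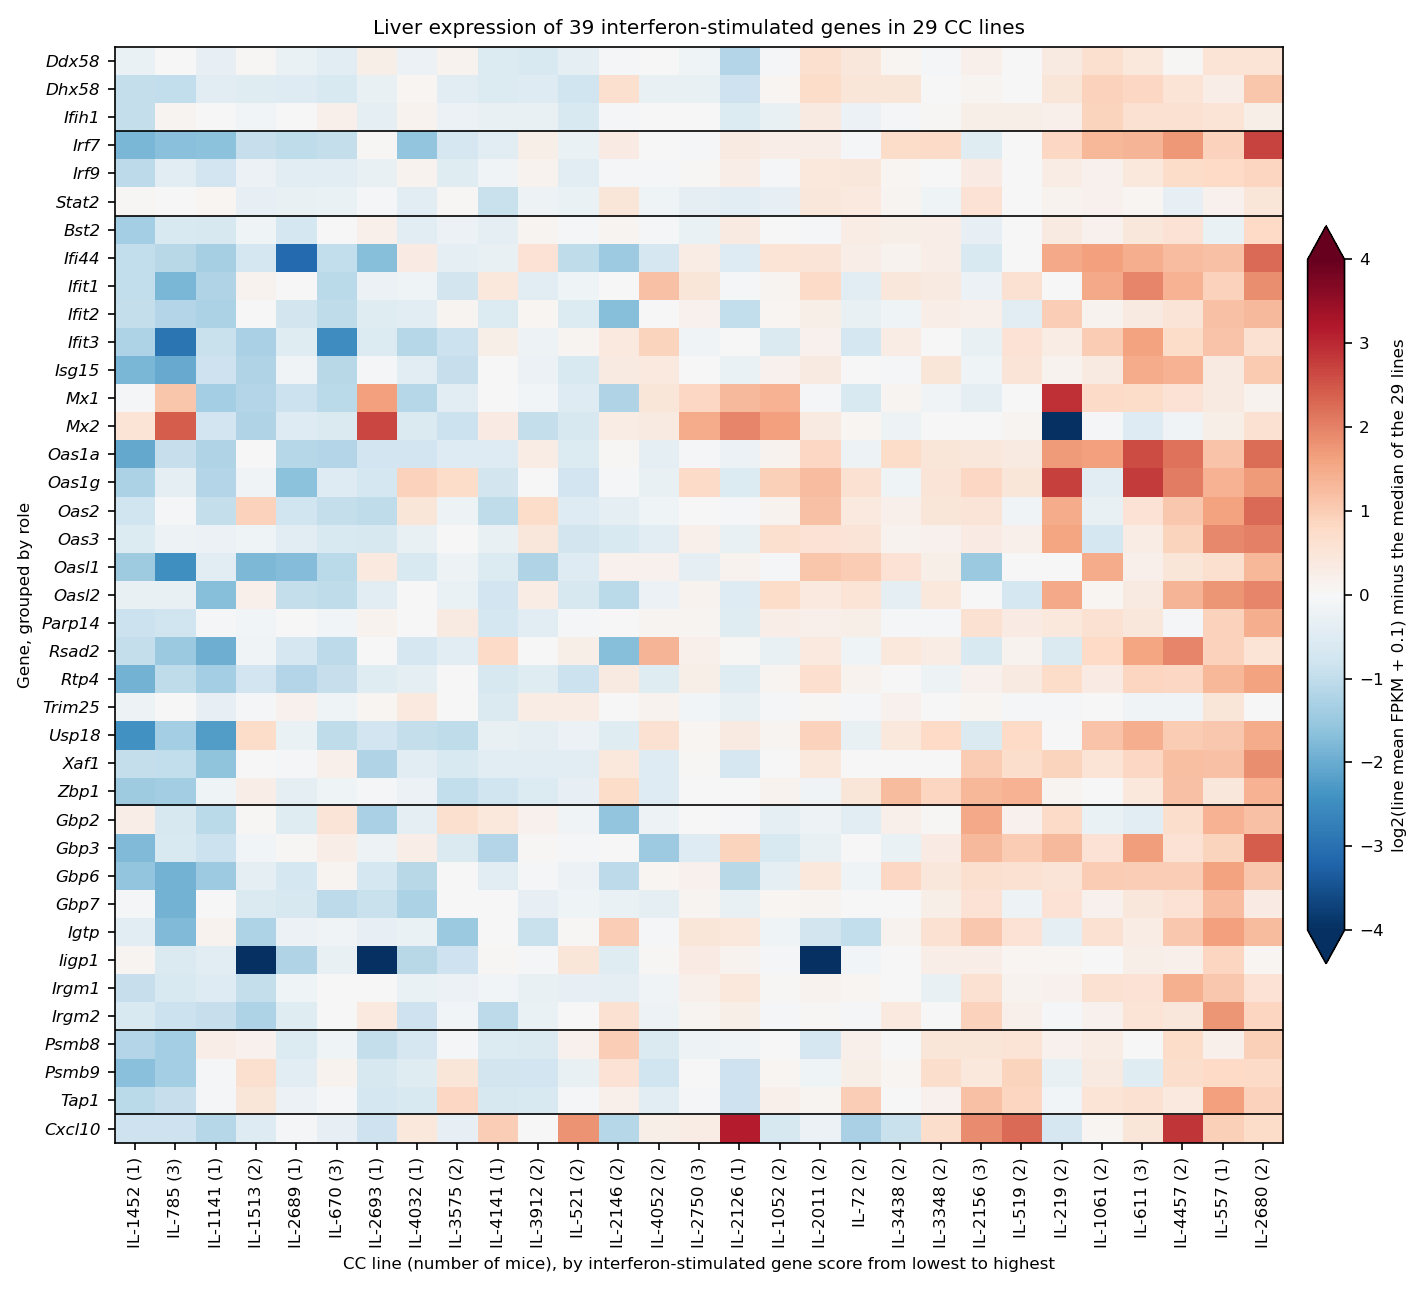
Line means of the 39 genes (rows, grouped by role) in 29 CC lines (columns, ordered by the mean score), shown as log2(FPKM + 0.1) minus the median of the lines, with red above and blue below. Most rows turn from blue to red from left to right, which the ordering by the mean of these same rows favours. Trim25 stays pale, and Mx2, Iigp1 and Ifi44 have single dark cells in IL-219, in IL-1513, IL-2011 and IL-2693, and in IL-2689.

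Differences among lines were tested with the quasi-likelihood F test of edgeR in the 21 lines that had mates (47 mice), with the p-values adjusted over all genes by the Benjamini-Hochberg method. Of the 39 genes, all of which passed the expression filter, 38 differed among lines at an adjusted p under 0.05. Over all genes 88.5% were called, so that this count says little about the group. The gene not called was Trim25, a ubiquitin ligase that activates the RNA sensor RIG-I, with an edgeR adjusted p of 0.408 and line means between 8.42 FPKM in IL-4141 and 17.44 FPKM in IL-557, each with 1 mouse. The share of variance between lines was described by the intraclass correlation of van der Waerden scores in the genes with a maximum of at least 2 FPKM and at least 12 distinct rounded levels. The median was 0.698 over 28 of the 39 genes and 0.592 over all 5949 genes that met the same limits. Ifit3 had the highest value (0.789), followed by Irf7 (0.783) and Xaf1 (0.774), and the lowest values were those of Trim25 (0.280), Irgm2 (0.484) and Iigp1 (0.543).

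The genes were summarised in each mouse by a score, the mean of log2(FPKM + 1) over the 39 genes. The score was lowest in IL-1452 (1.87, 1 mouse) and IL-785 (1.90 ± 0.11, SD, n = 3), and the median line had 2.52. It was highest in IL-2680 (3.40 ± 0.47, SD, n = 2), IL-557 (3.26, 1 mouse), IL-4457 (3.19 ± 0.19, SD, n = 2) and IL-611 (3.09 ± 0.13, SD, n = 3). The within-line SD was 0.214 and the intraclass correlation 0.732, without a test, since a score over chosen genes is a description. The largest gap between neighbouring lines was 0.147, so that no line was separated from the next by more than the within-line SD. Mates were far apart in IL-2680 (3.06 and 3.73), in IL-2146 (2.18 and 2.77) and in IL-2750, where the library labelled replicate 2, which resembles IL-1052 replicate 2, had 3.00 and the other mice 2.31 and 2.25. The mice of IL-785 (1.80 to 2.02) and of IL-611 (2.98 to 3.24) did not overlap.

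**Figure D2:**
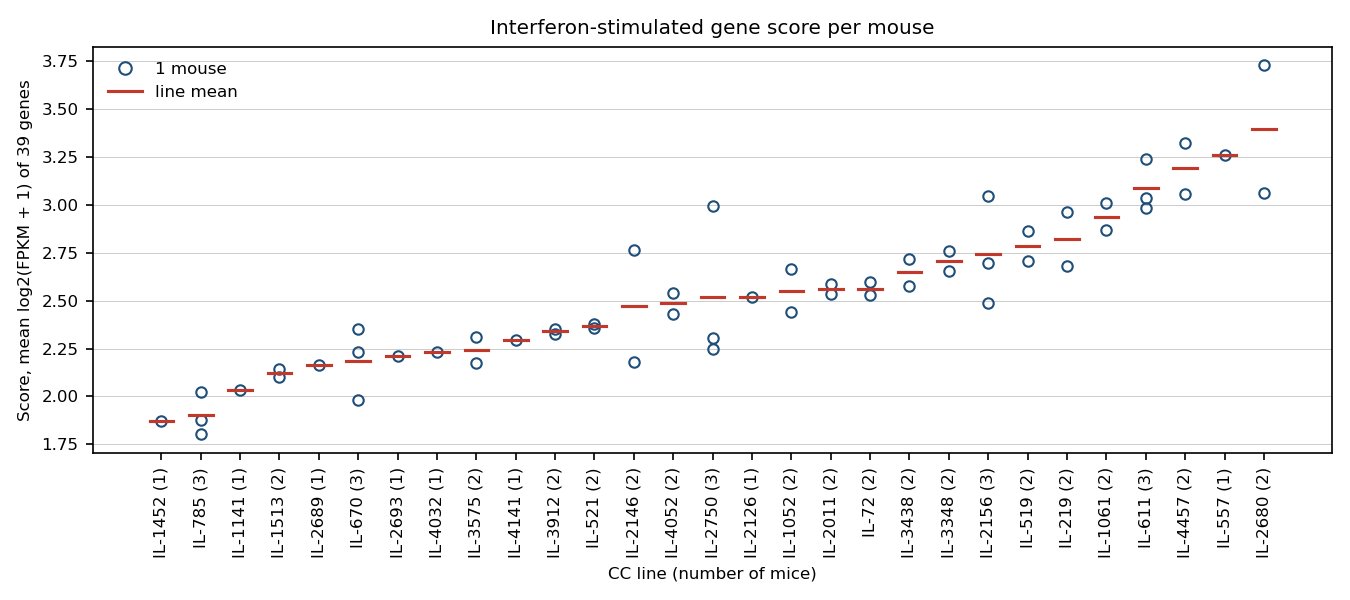
Mean log2(FPKM + 1) of the 39 genes for each mouse (circles) and each line mean (bars), with lines ordered from lowest to highest. The line means run from 1.87 to 3.40 in small steps, and the mates of IL-2680 (3.06 and 3.73) and IL-2146 (2.18 and 2.77) are far apart.

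Each of the 21 lines was then compared with the mean of the other 20 in the same edgeR fit, with p-values adjusted over all genes and lines. Of 819 pairs of gene and line, 139 were called higher and 102 lower, against 11.0% and 7.15% of all 320985 pairs called higher and lower. These comparisons share their reference lines. The counts were uneven over lines. The genes were higher most often in IL-4457, with 26 of 39 (18.4% of all genes), in IL-2680, with 23 (10.7%), and in IL-611, with 20 (8.78%). None of the 39 was called lower in these 3 lines, against 16.0%, 6.45% and 6.29% of all genes. Smaller numbers were higher in IL-1061 (14, against 9.18% of all genes), IL-2156 (12, against 15.4%), IL-219 (10, against 8.77%) and IL-519 (10, against 9.56%). The genes were lower most often in IL-785, with 26 of 39 (7.57% of all genes), in IL-670, with 17 (7.26%), and in IL-1513, with 13 (9.76%), followed by IL-521 and IL-3912 with 9 each (6.93% and 5.86%). Only Mx1 and Mx2 were higher in IL-785 (11.7% of all genes were), and only Xaf1 was higher in IL-670 (10.4% of all genes were), in counts and not in FPKM. Counts are not scaled for the length of the isoforms, and of all 241 calls this 1 alone had the opposite sign in log2(FPKM + 1).

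**Figure D3:**
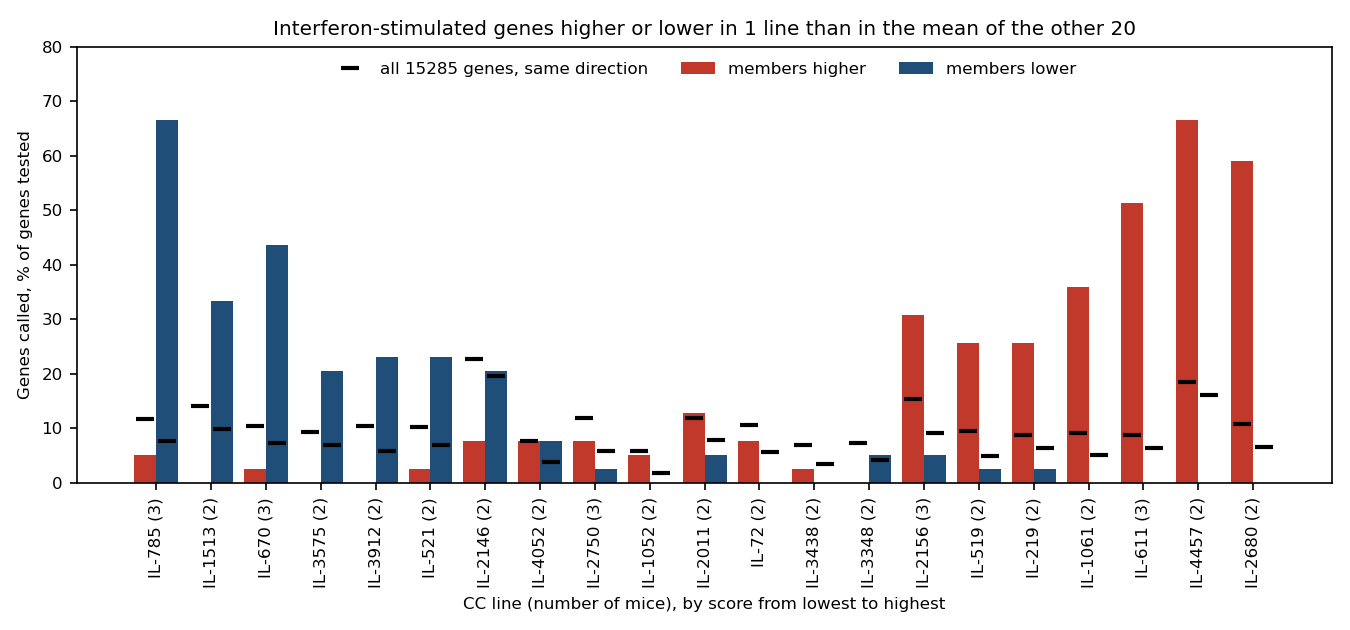
Share of the 39 genes called higher (red bars) or lower (blue bars) in each of 21 lines than in the mean of the other 20, in percent, with lines ordered by the score and black dashes for the share of all 15285 genes called in the same direction. IL-4457 and IL-785 each have 26 of the 39 genes called, in opposite directions.

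Among the transcription factors, Irf7, which amplifies the type I response and is itself induced by it, had the widest range. Its levels were 90.34 and 50.64 FPKM in the 2 IL-2680 mice, 23.98 and 47.75 FPKM in IL-4457, and 3.91, 2.59 and 3.55 FPKM in IL-785, with a median of line means of 10.8 FPKM. Both IL-2680 mice lay above every other mouse, the highest of which had 47.75 FPKM. Irf7 was higher in IL-2680 by 2.47 ± 0.26 (SE) on the log2 scale (edgeR adjusted p = 2.22e-08) and in IL-4457 by 1.67 ± 0.28 (adjusted p = 6.33e-05), and it fell by 2.07 ± 0.35 in IL-785 (adjusted p = 6.18e-05) and by 1.17 ± 0.32 in IL-670 (adjusted p = 0.00895). Without IL-4457 replicate 2 the edgeR adjusted p in that line was 0.0643, and without IL-670 replicate 2 it was 0.0722. Irf9, the DNA-binding subunit of the complex with Stat2, moved in the same directions by smaller amounts, with log2 differences of 0.78 in IL-4457, 0.71 in IL-2680, 0.38 in IL-611, -0.45 in IL-785 and -0.46 in IL-670, all of them called. Of these calls of Irf9, the one in IL-4457 was kept whichever mouse was left out, and those in the other lines were lost without some mouse, with edgeR adjusted p of up to 0.185 in IL-2680, 0.284 in IL-611, 0.230 in IL-785 and 0.175 in IL-670. Stat2 was called higher in IL-2680 (0.38) and was not called in IL-4457 (-0.27), IL-785 (0.06) or IL-670 (-0.23), and its call was lost without replicate 1 of IL-2680 (edgeR adjusted p = 0.181).

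Of the RNA sensors, Dhx58, which encodes LGP2, was higher in IL-2680 (0.98 on the log2 scale) and IL-611 (0.85) and lower in IL-785 (-1.10) and IL-670 (-0.65). Ddx58, which encodes RIG-I, was higher in IL-2680 (0.41) and IL-611 (0.43) and lower in IL-670 (-0.41), with a difference of -0.01 in IL-785. Ifih1, which encodes MDA5, was higher in IL-4457 (0.55) and IL-611 (0.61), with -0.01 in IL-785. The calls of Dhx58 in IL-2680 and IL-670, of Ddx58 in all 3 of these lines and of Ifih1 in IL-4457 were lost when some mouse of the line was left out. The line means of these 3 sensors spanned between 3.61 and 4.45 times from lowest to highest, less than those of most effectors.

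Of the 39 genes 21 are antiviral effectors, and of these 16 were higher in IL-4457, 15 in IL-2680 and 11 in IL-611, and 15 were lower in IL-785 and 12 in IL-670, against 18.4%, 10.7%, 8.78%, 7.57% and 7.26% of all genes. Isg15, a ubiquitin-like modifier, is an example of the shared pattern. It had 31.35 and 29.31 FPKM in IL-4457, 30.65, 30.32 and 36.7 FPKM in IL-611, 30.09 and 17.34 FPKM in IL-2680, and 3.17, 2.18 and 2.97 FPKM in IL-785. In the mice outside the first 3 of these lines it reached at most 22.67 FPKM. Its log2 differences were 1.56 ± 0.23 (SE) in IL-4457 (edgeR adjusted p = 1.26e-05), 1.58 ± 0.20 in IL-611 (adjusted p = 5.4e-07) and 0.97 ± 0.25 in IL-2680 (adjusted p = 0.00589), and it fell by 2.08 ± 0.29 in IL-785 (adjusted p = 4.5e-06). Without replicate 1 of IL-2680 the difference in that line was 0.58, with an edgeR adjusted p of 0.296. Usp18, the protease that removes Isg15 from proteins, was higher in IL-2680 (15.09 and 7.44 FPKM, 1.28 on the log2 scale), IL-4457 (0.98) and IL-611 (1.38) and lower in IL-785 (-1.62) and IL-670 (-1.22), and the calls in IL-2680, IL-4457 and IL-670 were lost when some mouse of the line was left out. Usp18 was lowest in the single mice of IL-1452 (0.65 FPKM) and IL-1141 (0.76 FPKM), against a median of 3.92 FPKM.

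The Ifit genes, which bind viral RNA and lie next to each other on chromosome 19 (Ifit2 at chr19:34625184-34650909, Ifit3 at chr19:34658021-34663221 and Ifit1 at chr19:34715361-34724499, NCBI build 37), were low in IL-785 and IL-670, and Ifit3 had the largest decrease of the 39 genes in both. Ifit3 had 0.40, 0.65 and 0.84 FPKM in IL-785 and 0.85, 0.56 and 1.29 FPKM in IL-670, against 17.96, 11.9 and 20.11 FPKM in IL-611. The 6 mice of IL-785 and IL-670 lay below every other mouse, the lowest of which had 1.96 FPKM. Ifit3 fell by 3.04 ± 0.38 (SE) on the log2 scale in IL-785 (edgeR adjusted p = 5.95e-07) and by 2.52 ± 0.36 in IL-670 (adjusted p = 5.48e-06), and rose by 1.89 ± 0.22 in IL-611 (adjusted p = 1.99e-07). Ifit1 had 0.57, 0.52 and 0.55 FPKM in IL-785 (-2.34) and 7.75, 5.75 and 12.96 FPKM in IL-611 (1.85), and was also lower in IL-670 (-1.41). Ifit2 was lower in IL-785 (-1.35) and IL-670 (-1.16), and had its lowest values in IL-2146, 0.14 and 0.15 FPKM, against a median of 0.69 FPKM, where it fell by 2.22 ± 0.34 (edgeR adjusted p = 1.8e-05). Estimated counts of Ifit1 and Ifit3 were not whole in most mice, so fragments that match them and other genes were shared out by estimation. Those of Ifit2 were whole in every mouse.

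The synthetases that activate RNase L were high in different lines. Oas1a had 8.16, 10.33 and 8.17 FPKM in IL-611, 8.43 and 5.37 FPKM in IL-2680, and 5.29 and 7.66 FPKM in IL-4457, with a median of 1.38 FPKM and 0.26 FPKM in the single IL-1452 mouse. The 3 IL-611 mice overlapped with IL-2680 and not with any other line. It rose by 2.36 ± 0.26 (SE) on the log2 scale in IL-611 (edgeR adjusted p = 5.87e-08), by 1.86 in IL-2680 and by 1.99 in IL-4457. Its neighbour Oas1g had 2.58, 3.47 and 4.09 FPKM in IL-611 and 3.8 and 2.59 FPKM in IL-219, with a median of 0.40 FPKM and 0.06 FPKM in IL-2689. Oas1a and Oas1g share much of their sequence, and the division of fragments between them is uncertain. Oas2 and Oas3 rose most in IL-2680, by 2.42 and 2.57, and Oas2 fell by 2.04 in IL-670, where it rested on 4, 3 and 15 fragments. Oasl2, an OAS-like gene, had 5.18 and 2.54 FPKM in IL-2680 (2.04 on the log2 scale), and 0.22 FPKM in IL-1141. Oasl1 had 0.46, 0.29 and 0.39 FPKM in IL-785, where it fell by 2.92 ± 0.47 (edgeR adjusted p = 2.99e-05), against a median of 2.52 FPKM.

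Rsad2, which encodes viperin, had 6.82 and 4.98 FPKM in IL-4457 (2.15 ± 0.25, edgeR adjusted p = 1.79e-07) and 0.30 FPKM in the IL-1141 mouse, against a median of 1.46 FPKM. Xaf1, which promotes apoptosis, had 25.3 and 12.61 FPKM in IL-2680 (2.31 ± 0.19, adjusted p = 2.29e-10) and 6.72, 4.7 and 6.19 FPKM in IL-670. Of the 39 genes Xaf1 had the most calls, higher in 6 lines and lower in 6, against 11.0% and 7.15% of all pairs of gene and line. Its differences were larger in counts than in log2(FPKM + 1), regardless of sign, in every line called. They were 2.31 and 1.49 in IL-2680, 1.70 and 0.91 in IL-4457, 1.51 and 0.73 in IL-2156, and 1.43 and 0.44 in IL-519. How far isoform length enters these calls was not tested. In IL-670 its counts were higher by 0.92 ± 0.19 (edgeR adjusted p = 0.000623), whereas its mean of 5.87 FPKM lay below the 6.88 FPKM of the mean of the other 20 lines. The share of its isoforms differed in that line, as described below. Zbp1, Rtp4 and Parp14 were all higher in IL-2680 (1.18, 1.51 and 1.26) and all lower in IL-785 (-1.87, -1.09 and -0.95). The calls of Rtp4 and Zbp1 in IL-2680 were lost without replicate 1 of that line. Bst2 was higher in IL-4457 (0.63), IL-2680 (0.65) and IL-611 (0.41) and lower in IL-785 (-0.65). Its call in IL-785 was kept whichever mouse was left out, and the higher calls were lost without some mouse, with a difference of 0.25 (edgeR adjusted p = 0.493) without replicate 2 of IL-4457.

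Ifi44, a cytoplasmic protein induced by type I interferon, was nearly undetected in 1 mouse. It had 0.02 FPKM in the single IL-2689 mouse, which was 1 estimated fragment, while every other mouse had at least 0.15 FPKM and the IL-2693 mouse had 0.22 FPKM. Relative to depth, the IL-2689 level was 0.0202 times the median of the other 54 mice, with an exact 95% Poisson interval from 0.000511 to 0.112 that covers counting error only. It had 8.2 and 1.6 FPKM in IL-2680, where it was called higher (2.15 ± 0.35, edgeR adjusted p = 3.69e-05), so the mates of this line differed by more than 1 log2 unit. Without replicate 1 the difference was 0.72 and was not called (edgeR adjusted p = 0.392).

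Mx1 and Mx2 encode dynamin-like GTPases of the antiviral response. The genes lie side by side on chromosome 16 (Mx1 at chr16:97668642-97684514 on the minus strand and Mx2 at chr16:97757690-97782506 on the plus strand, NCBI build 37). In IL-219 Mx1 had 3.77 and 2.67 FPKM, above every other mouse, the highest of which had 1.78 FPKM, and Mx2 had 0.04 and 0.01 FPKM, below every other mouse, the lowest of which had 1.02 FPKM. Mx1 was higher in IL-219 by 3.29 ± 0.31 (SE) on the log2 scale (edgeR adjusted p = 3.77e-09). Mx2 in IL-219 rested on 2.48 estimated fragments in both mice together, and was called lower (edgeR adjusted p = 5.4e-05). Rounded to 2 fragments, its level relative to depth was 0.00761 times the median of the other 53 mice (exact 95% Poisson interval from 0.000922 to 0.0275, counting error only).

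At the other extreme, 7 mice had between 9.83 and 20.15 FPKM of Mx2, while the other 46 mice outside IL-219 had between 1.02 and 5.72 FPKM. They were the 3 mice of IL-785 (19.46, 9.83 and 17.62 FPKM), the single mice of IL-2693 (18.64 FPKM) and IL-2126 (11.24 FPKM), and the libraries labelled IL-1052 replicate 2 (15.38 FPKM) and IL-2750 replicate 2 (20.15 FPKM). The mates of the last pair had 2.63 FPKM in IL-1052 and 2.17 and 1.66 FPKM in IL-2750, which follows the similarity over all genes described above and not the labels. In the same 7 mice Mx1 lay between 0.52 and 1.78 FPKM, against 0.05 to 0.69 FPKM in the other 46. In IL-785 Mx2 rose by 2.91 ± 0.31 (SE) on the log2 scale (edgeR adjusted p = 3.6e-08) and Mx1 by 1.18 ± 0.33 (adjusted p = 0.0122), in the line where 26 of the other genes were lower. Without IL-1052 and IL-2750 all 4 of these calls of Mx1 and Mx2 in IL-219 and IL-785 were kept. The call of Mx1 in IL-785 was lost without replicate 1 (edgeR adjusted p = 0.0563) or replicate 2 (adjusted p = 0.0740). Mx1 rested on few fragments, a median of 20.2 and at most 214 in a mouse. In all 55 mice the estimated counts of Mx1 and Mx2 added up to a whole number, within 0.02, although that of Mx1 alone was whole in 12. Fragments that match both genes were thus shared out by estimation, and the level of Mx1 beside a high level of Mx2 is uncertain. In IL-219 the estimates were 214.17 and 137.35 fragments for Mx1 and 1.83 and 0.65 for Mx2. How far these opposite levels rest on the division of fragments was not tested, so they are not 2 independent findings.

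**Figure D4:**
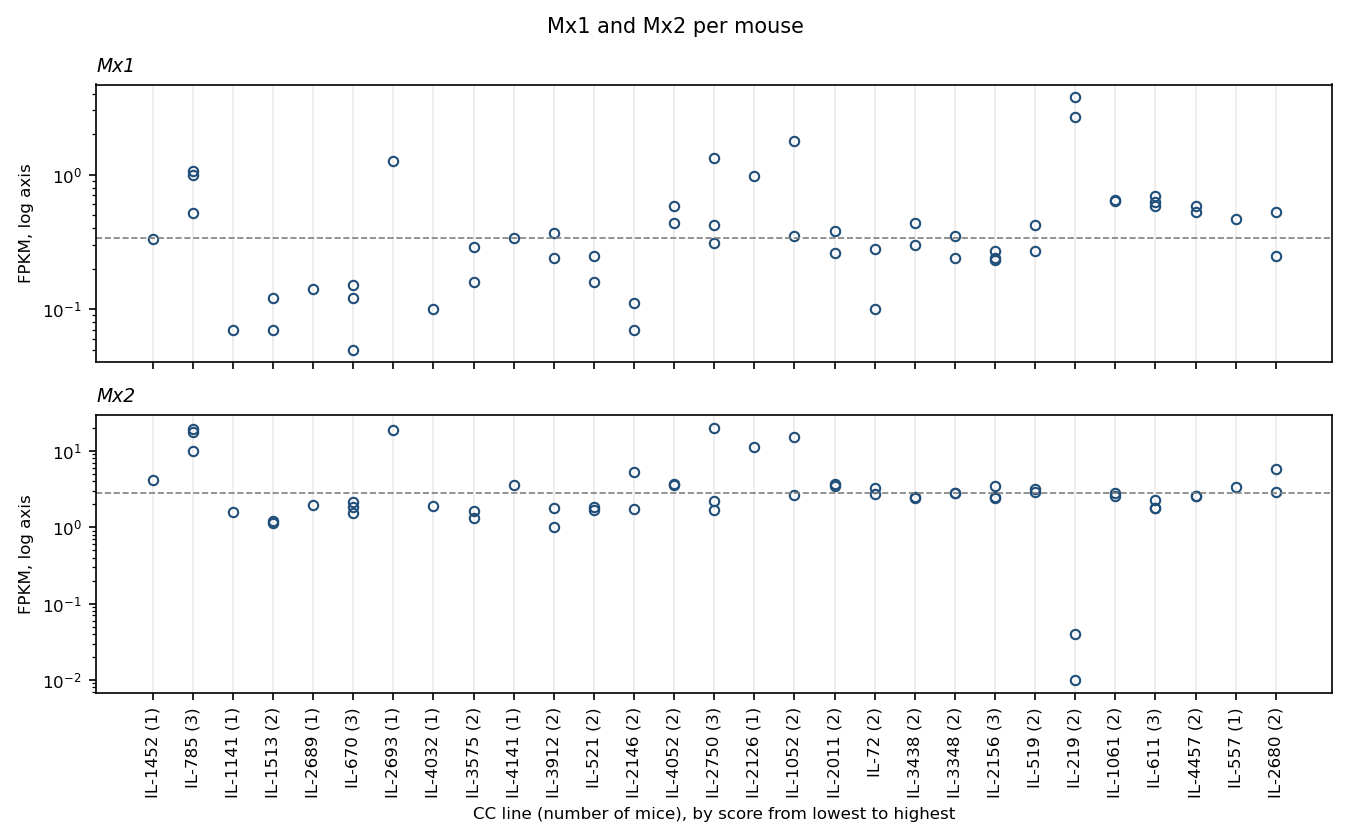
Mx1 (upper panel) and Mx2 (lower panel) in FPKM on log axes for each mouse (circles), with lines ordered by the score and the median of line means as a dashed line. In IL-219 Mx1 is at its highest (3.77 and 2.67) and Mx2 at its lowest (0.04 and 0.01), and 7 mice, 3 of them of IL-785, have Mx2 above 9.83.

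The interferon-inducible GTPases attack the vacuoles of intracellular parasites and bacteria. Iigp1 (chromosome 18) fell into separate levels. In 49 mice it had between 49.44 and 207.46 FPKM, and in the other 6 at most 0.47 FPKM. The 6 were both mice of IL-1513 (0.37 and 0.39 FPKM), both of IL-2011 (0.37 and 0.40 FPKM), the IL-2693 mouse (0.47 FPKM) and 1 of the 2 IL-3575 mice, with 0.26 FPKM against 127.32 FPKM in its mate. Iigp1 fell by 7.91 ± 1.12 (SE) on the log2 scale in IL-1513 (edgeR adjusted p = 5.12e-06), with 67.3 estimated fragments in both mice together. The score of IL-2011 was 2.56 ± 0.04 (SD, n = 2), near the median line. In IL-1513 the GTPases Irgm2 (-1.46), Igtp (-1.36) and Irgm1 (-1.08) were lower as well, each with a call that was lost when 1 of the mice was left out. Estimated counts of Igtp and Irgm2 were not whole, for example 760.01 and 543.99 in IL-1513 replicate 1, so some of their fragments were shared out by estimation. Their division is uncertain, and the 2 decreases are not independent findings.

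**Figure D5:**
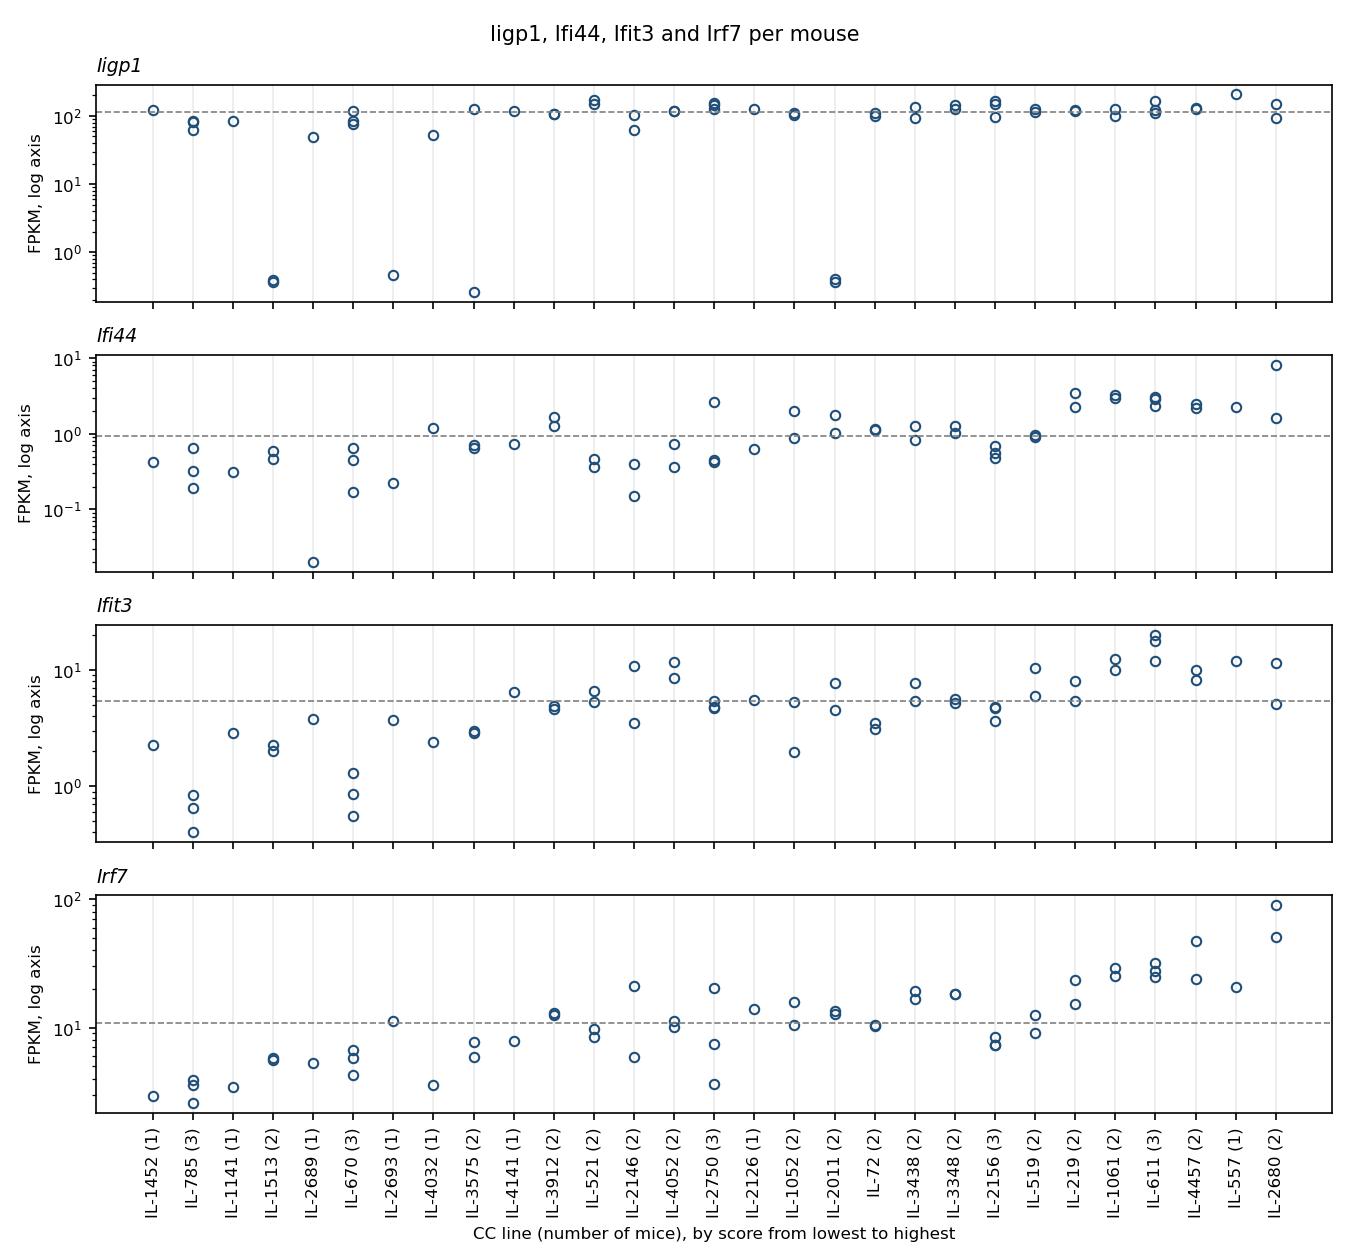
FPKM of Iigp1, Ifi44, Ifit3 and Irf7 on log axes for each mouse (circles), with lines ordered by the score and the median of line means as a dashed line. Iigp1 lies at or below 0.47 in 6 mice and at or above 49.44 in the other 49, Ifi44 is at 0.02 in IL-2689, Ifit3 is lowest in IL-785 and IL-670, and Irf7 is highest in IL-2680 (90.34 and 50.64).

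The other GTPases varied more evenly. Irgm1 had 49.72 and 122.63 FPKM in IL-4457 (1.63 ± 0.18, SE, edgeR adjusted p = 9.81e-08), which were mates more than 1 log2 unit apart. Without replicate 2 the difference was 0.78 and was still called. Igtp had 33.46 and 64.44 FPKM in IL-4457 (1.28), 71.54 FPKM in the single IL-557 mouse, and 5.17, 5.08 and 9.7 FPKM in IL-785 (-1.77). Irgm2, whose intraclass correlation was among the lowest, had 44.9 FPKM in IL-557 and 5.25 and 5.8 FPKM in IL-1513. Gbp3 had 11.67 and 3.76 FPKM in IL-2680 (2.17 ± 0.28, edgeR adjusted p = 1.52e-06) and 0.33 FPKM in the IL-1452 mouse. Without replicate 1 of IL-2680 the difference of Gbp3 was 1.22, and without replicate 2 of IL-4457 that of Igtp was 0.74 and was not called. Gbp6 and Gbp7 were higher in IL-4457 (0.94 and 0.80) and lower in IL-785 (-2.20 and -2.03), and Gbp7 had 0.49, 0.57 and 0.49 FPKM in IL-785 against a median of 2.20 FPKM. The calls in IL-4457 were lost without replicate 2, with edgeR adjusted p of 0.428 for Gbp6 and 0.209 for Gbp7, and that of Gbp7 also without replicate 1. Gbp2 was called in 2 of 21 lines, higher in 1 and lower in 1, against 11.0% and 7.15% of all pairs of gene and line. The guanylate-binding protein genes on chromosome 3 are close relatives, but estimated counts of Gbp2, Gbp3 and Gbp7 were whole in most mice. A division of fragments thus shows in fewer mice than for Oas1a and Oas1g. Counts of Gbp6, on chromosome 5, were whole in no mouse, so fragments that match it and other genes were shared out, and its level is uncertain.

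The immunoproteasome subunits Psmb8 and Psmb9 and the peptide transporter Tap1 are neighbours in the major histocompatibility complex on chromosome 17. All 3 were lower in IL-785, by 1.46 for Psmb8 and Psmb9 and by 1.22 for Tap1 on the log2 scale, with values of 8.87, 7.48 and 9.35 FPKM for Psmb8 against a median of 22.1 FPKM. Psmb8 (0.79) and Psmb9 (0.75) were higher in IL-4457, and Psmb8 (0.88) in IL-2680. In IL-4457 both calls were lost without replicate 2, with edgeR adjusted p of 0.114 for Psmb8 and 0.237 for Psmb9. In IL-611 and IL-670 none of the 3 was called. The ends of Psmb9 and Tap1 overlap on opposite strands in the annotation, and default settings of RSEM do not use the strand.

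Cxcl10, a chemokine that draws T and NK cells, had the largest within-line SD after Iigp1 (0.622 on the log2(FPKM + 1) scale). It had 7.92 and 15.67 FPKM in IL-4457, 13.36 and 1.97 FPKM in IL-519, 0.83, 11.82 and 5.17 FPKM in IL-2156, and 14.09 FPKM in the IL-2126 mouse, against a median of 1.53 FPKM. It was higher in IL-4457 by 3.02 ± 0.42 (SE) on the log2 scale (edgeR adjusted p = 4.44e-06) and in IL-519 by 2.46 ± 0.45 (adjusted p = 0.000194), where 1 of the 2 mice lay near the median. Without replicate 1 of IL-519 the difference was 0.51, with an edgeR adjusted p of 0.736.

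The genes rose and fell together over lines. Spearman correlations of line means of log2(FPKM + 1) over 29 lines were computed for all 741 pairs as a description, since the points share libraries and line ancestry. The median was 0.488, with 48.2% of pairs above 0.5 and 36 pairs below 0. Over all 14109 genes with a line mean of at least 0.5 FPKM the median was 0.0628 and 2.97% of pairs were above 0.5. The 18 pairs within 5 Mb of each other had a median of 0.721 and the other 723 a median of 0.480, so the likeness was not confined to neighbours. The highest correlation was that of Ifit1 and Usp18 (0.926), on different chromosomes. With the mean of the other 38 genes, Oas1a (0.908) and Rtp4 (0.907) had the highest correlations, 32 of the 39 genes exceeded 0.5, and Mx2 (0.019), Trim25 (0.125) and Stat2 (0.391) had the lowest. Mx1 and Mx2 had a correlation of 0.510 with each other.

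Isoform shares of a few genes also differed by line. Irgm1 transcript ENSMUST00000049519 (2259 bases) made up 0.59% of the gene in the single IL-4141 mouse and 69.2% in IL-2011. The gene had at least 732 estimated fragments in every mouse. In the IL-4141 mouse ENSMUST00000169066, of nearly the same length (2250 bases), made up 64.2%, against a median of 0% over mice. The division of fragments between these transcripts is uncertain. Xaf1 transcript ENSMUST00000146233 (2597 bases) made up 75.7% in IL-670 and 10.9% in IL-1513, on a gene with a median of 142 fragments. Over all mice its share had a mean of 34.6% and a median of 17.6%. The long Ifih1 transcript ENSMUST00000028259 made up between 20.2% in IL-1513 and 53.3% in IL-1052, or 49.3% in IL-519 without IL-1052 and IL-2750. These transcripts were chosen after their values were seen, and no test was made.

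Of 21 interferon genes on a list of ligands, 19 were found in the files, none passed the expression filter, and 16 had 0 estimated fragments in every mouse, Ifnb1 among them. The largest values were 5 fragments of Ifng, 3 of Ifnk and 1.43 of Ifnz in 1 mouse. All 20 genes of receptors and signal transduction differed among lines, as did 88.5% of all genes. The receptor chains had medians of 7.58 FPKM for Ifnar1, 42.0 FPKM for Ifnar2, 5.70 FPKM for Ifngr1 and 4.09 FPKM for Ifngr2, the kinases of 16.96 FPKM for Jak1 and 3.89 FPKM for Tyk2, and in these 6 genes the highest line mean was between 2.01 and 2.79 times the lowest. Irf1 had a median of 9.29 FPKM, from 6.09 FPKM in IL-1452 to 18.5 FPKM in IL-2156. Of these 20 genes, 7 were higher and 3 lower in IL-4457, none higher and 1 lower in IL-2680, and none higher and 2 lower in IL-785. The shares of all genes were 18.4% and 16.0% in IL-4457, 10.7% and 6.45% in IL-2680, and 11.7% and 7.57% in IL-785, so the numbers lower in these lines were near or below those of all genes. Socs1, an inhibitor of the kinases chosen here after its values were seen, had a mean of 4.01 FPKM in IL-4457 against a median of 0.12 FPKM.

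A further 47 interferon-stimulated genes outside the group, named on a separate list, were all called in the F test. In IL-4457, 15 were higher and 6 lower, in IL-2680 14 higher and 2 lower, and in IL-611 16 higher and none lower. In IL-785 none was higher and 22 were lower, and in IL-670 3 were higher and 8 lower. These numbers and those that follow are to be read against the shares of all genes in the same lines, given above, and the 6 that were lower in IL-4457 are below the 16.0% of all genes. Of 12 genes of class I antigen presentation, 8 were higher in IL-4457 and 6 in IL-2680, and 10 were lower in IL-785. Of 14 upstream genes of nucleic acid sensing, all called in the F test, 6 were higher in IL-2680 and 4 in IL-4457.

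Markers of other liver cells moved with some of these lines, and no marker searched was at 0 in every mouse. The summed FPKM of 11 macrophage and Kupffer cell genes was 281 in IL-2680, with 8 of 11 higher, and 54.5 in IL-670, with 8 of 11 lower, against a median of 110 over lines and 331 in the IL-557 mouse. It was 158 in IL-4457, with none called, 124 in IL-611, with 1 higher, and 92.7 in IL-785, with 1 lower. The sum of 11 T and NK cell genes was 5.55 in IL-2680, 3.73 in IL-4457, 1.73 in IL-611, 2.99 in IL-670 and between 1.28 and 1.85 in the IL-785 mice, against a median of 1.84. The sum of 7 neutrophil genes was 2.13 in IL-2680, 13.7 in IL-4457 and 8.96 in IL-785, against a median of 4.67. This neutrophil sum was highest in IL-2156, at 73.2. The sum of 6 B cell genes was 1.17 in IL-2680, 1.08 in IL-4457 and 1.16 in IL-785, against a median of 1.12. The sum of 6 endothelial genes was 54.6 in IL-4457, with 3 higher, against a median of 34.7. Among 4 genes of plasmacytoid dendritic cells the sum is mostly Bst2, itself a member, while Siglech had a median of 0.10 FPKM and Ccr9 of 0.035 FPKM. In whole liver, fewer cells of a type and less RNA per cell cannot be told apart, and the part of these cells in the differences among lines was not tested.

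The counts in single lines changed when single mice were left out, which also takes away a replicate. In a line of 2 mice it leaves 1, and a call can be lost though the difference hardly moves. That of Usp18 in IL-4457 was 0.98, and 1.04 without replicate 1. Lost calls alone thus do not show that a difference rests on 1 mouse. Without replicate 1 or 2 of IL-4457 the number higher fell from 26 to 17 or 12, and without replicate 1 of IL-2680 from 23 to 10. Without replicate 3 of IL-611 the number higher was 12 instead of 20, and without replicate 2 of IL-670 the number lower was 6 instead of 17. In IL-1513 the number lower was 5 or 3 instead of 13 when either mouse was left out. In IL-785 it stayed between 19 and 27. Of 133 calls of single genes in these and 4 further lines, 70 were lost when some mouse was left out, and none changed direction. A line left with 1 mouse was assumed to vary like the other lines. Without IL-1052 and IL-2750 the counts were 27 in IL-4457, 28 in IL-2680, 22 in IL-611, 27 in IL-785, 19 in IL-670 and 15 in IL-1513.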

How the data were processed

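Liver polyA RNA was sequenced by the authors with a stranded kit and 50-base paired ends, and fragments were aligned to the mouse genome (mm9, NCBI build 37, Ensembl 67) with Bowtie 2 version 2.1.0 and quantified with RSEM version 1.2.18. The deposited files hold expected counts per gene and isoform, not normalized, with multiply matching fragments shared out by RSEM. The deposited TPM and FPKM values were scaled by RSEM for length and depth, and the deposited isoform shares are in percent. Alignment to 1 reference genome can lower counts of alleles that differ from it, which was not tested. Gene positions are from Ensembl 65 on the same build, and promoters from RefSeq on GRCm38.p6.

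Expected counts were rounded, filtered by the edgeR default, TMM-normalized and tested with edgeR 4.0.16 (R 4.3.3), with p adjusted by the Benjamini-Hochberg method over all genes, or over all genes and lines, at 0.05. DESeq2 1.42.0 and limma 3.58.1 served as alternatives. Scores used log2(FPKM + 1). Intraclass correlations used van der Waerden scores of FPKM, in steps of 1/200 of each gene's maximum and at least 0.5 FPKM. Replicates were numbered in accession order. The edgeR p-values set differences among lines against the spread between mates, which the fit moderates over genes. Genes were named by role, level, range, intraclass correlation, a line mean 4 times from the median, and calls in the 2 lines with most calls in each direction. The genes and lists were chosen with earlier results of these data known. The fit was tested on simulated data. The labels name no batch. Ratios with a lowest line mean under 0.1 FPKM are not printed as folds. A gene outside the group is not reported here.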

Additional observations from a re-analysis of the deposited data

How the results depend on the processing

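The number of the 39 genes that differed among lines was between 32 and 38 under upper quartile normalization, no filter, at least 10 counts in every mouse (33 genes tested), the DESeq2 likelihood ratio test, limma on log2(FPKM + 1) or log2(FPKM + 0.1), and without IL-1052 and IL-2750, and between 37 and 38 when each mouse was left out. The same settings of the edgeR fit kept the counts in single lines within 1.5 times of the values above. When each mouse was left out in turn, the number higher ranged from 12 to 27 in IL-4457, from 10 to 28 in IL-2680 and from 12 to 21 in IL-611, and the number lower from 19 to 27 in IL-785, from 6 to 18 in IL-670 and from 3 to 14 in IL-1513. The range of the score over lines was 1.52, 2.04 with a pseudocount of 0.1 FPKM, and between 1.39 and 1.85 when mice were left out, with the highest value without replicate 2 of IL-2680. Its intraclass correlation lay between 0.712 and 0.802, and the median intraclass correlation of the genes between 0.683 and 0.756. The median correlation between genes was 0.429 over the 21 lines with mates. With the core shortened to GAAANNGAA, 62.5% of the promoters held it, against 8.56% of all. Of 133 calls of single genes in single lines none changed direction in these fits, none was lost without IL-1052 and IL-2750, 6 were lost under another normalization or filter, with edgeR adjusted p between 0.0505 and 0.0646 (Dhx58 in IL-1513, Ddx58 in IL-2680, Oas3 in IL-4457, Ifi44 in IL-670, and Oas1g and Oasl2 in IL-785), and 70 were lost when some mouse was left out. In log2(FPKM + 1), added after seeing the data, 1 changed direction (Xaf1 in IL-670, 0.92 in counts and -0.054 in FPKM). Lines with 1 mouse have no replicate check, and Mx1, Mx2 in IL-219, Oas1g, Oas2, Oas3 and Ifi44 rest on few fragments, with medians of 18.8 for Oas1g and 28 for Oas2, and the difference of Oas2 in IL-670 lay between -3.14 and -1.61 when each mouse was left out. No paired analysis was possible because the labels give mice no replicate numbers shared across lines.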
